A study of Mus musculus with 15 samples.

Results

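Netrins, ephrins, semaphorins and Slits are families of secreted or membrane-bound guidance ligands, and their genes and receptor genes are described here in mouse uterine epithelium on day 4. The members are the genes whose symbols begin with the names of the netrins (Ntn) and their receptors (Dcc, Neo1, Unc5), the ephrins (Efn) and Eph receptors, the semaphorins (Sema) with the plexins (Plxn) and neuropilins (Nrp), and the Slits with the Robo receptors. That rule picked 69 of the 28269 entries in the deposited tables. Of these, 66 are protein-coding ligands or receptors of the families. The other 3 were taken in by their symbols only, and are the Plxna4 antisense RNAs Plxna4os1 and Plxna4os2 and the gene Unc5cl. Epha5, Epha10, Ntn3 and Unc5d were not analysed here.

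RNA was sequenced from 2 epithelia of the uterus, the luminal layer facing its cavity (LE) and the glands beneath it (GE), with 3 libraries in each of 5 groups. The wild-type (WT) libraries, titled Ctrl, and the E-OEX libraries cover both epithelia, and the U-OEx libraries cover LE only. Both E-OEX and U-OEx carry the label of overexpressed Notch1, a receptor of cell to cell signalling. The labels give neither the meaning of the 2 abbreviations nor the promoter, the transgene or the number of animals behind a library, so a p-value here measures the spread between libraries, which may be technical. The study's title asks what overactive Notch1 signalling does in this epithelium.

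Guidance ligands were first described as cues that steer growing axons, and the same families act between neighbouring cells in many tissues, where they regulate adhesion, cell sorting, branching and vessel growth. Netrins bind Dcc, Neo1 and the Unc5 receptors. Ephrins sit on the cell surface and bind Eph receptor tyrosine kinases on the next cell, secreted class 3 semaphorins bind neuropilins paired with plexins, membrane semaphorins bind plexins directly, and Slits bind Robo receptors.

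The tables do not list the same genes, and this decides what can be compared. Of the members, 41 are among the 6414 genes of the WT tables, 34 among the 4903 of the E-OEX tables and 65 among the 27946 of the U-OEx tables. The WT and E-OEX tables hold only genes whose GE and LE means differed by about 1 or more on the log2 scale, so a difference between the epithelia is a condition for being listed there. In all, 22 members are in every table, 24 in both the WT and E-OEX tables, 39 in both the WT and U-OEx tables and 30 in both the E-OEX and U-OEx tables. Dcc and Epha3 appear in the E-OEX tables only, and 18 members in the U-OEx tables only. A member outside a table was not analysed in that group.

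Values are scaled read counts as deposited. Reads in listed genes numbered 3818041 to 4797424 in the WT libraries, 1980800 to 3494859 in those of E-OEX and 13541644 to 14981505 in those of U-OEx, and for WT and E-OEX these are sums over selected genes and not depths. Notch1 itself was listed in the U-OEx tables only, at 2913, 3524 and 2789, so it could not check the labels of the other groups. Of the luminal markers, 4 of 5 tested were higher in WT LE than in WT GE, and all 8 gland markers were higher in WT GE. In overexpressing LE the luminal markers were not kept as a list: of 5 tested, 3 were lower and 1 was higher in U-OEx than in WT, with Calb1 at -7.03 and Lpar3 at -4.70 on the log2 scale, and 2 were lower and 1 was higher in E-OEX. Some libraries stood apart in the markers of other cells. WT LE replicate 2 had a summed level of 7874 for 9 stromal markers, against 411 and 2563 in the other WT LE libraries, and of 3565 for 4 mesothelial markers, against 117 and 1100. E-OEX LE replicate 1 had a summed level of 1321 for 6 gland markers, against 215 and 291 in the other E-OEX LE libraries, and E-OEX GE replicate 1 had 9352 for 6 luminal markers, against 2598 and 2453. U-OEx LE replicate 3 had a summed level of 1071 for 5 mesothelial markers, against 149 and 186 in the other U-OEx LE libraries. For 11 stromal markers it had 2716, against 1049 and 729. Calls between genotypes that change without these libraries are given both ways.

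**Figure D1:**
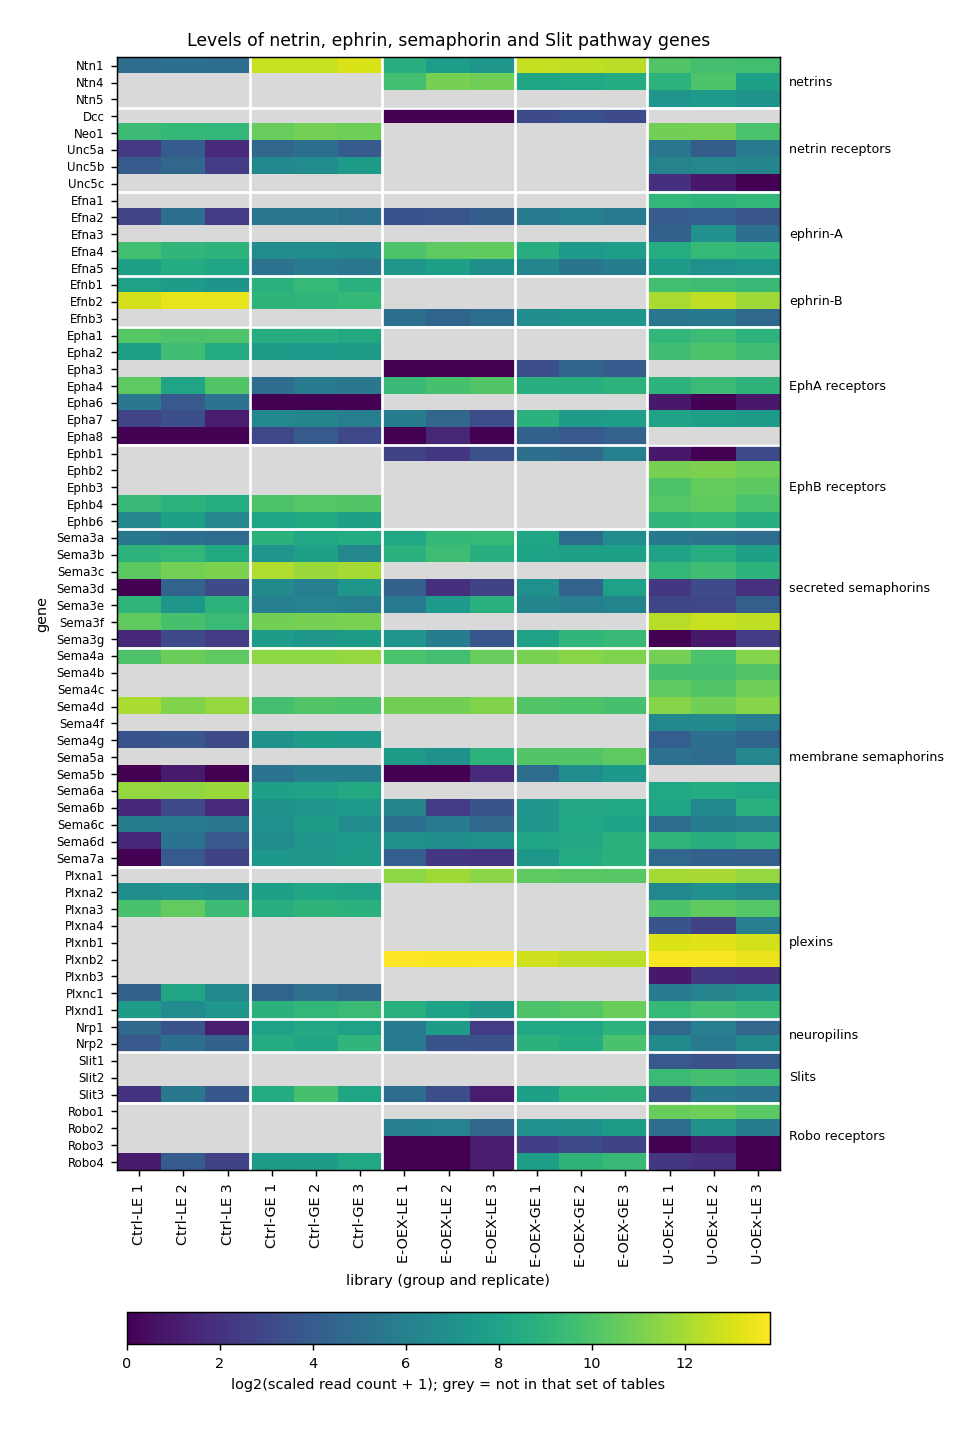
Heat map of the 66 protein-coding guidance genes (vertical axis, grouped by role) in the 15 libraries (horizontal axis), coloured by log2(scaled read count + 1), with grey where a set of tables does not list the gene. The sets of tables may have been scaled separately, so colours compare best within a genotype. Ntn1 is dark in the 3 WT LE libraries, with values from 30.0 to 32.8, and bright in the 3 WT GE libraries, with values from 6520 to 8538.

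In outline, more members passed against WT in U-OEx LE than in E-OEX, and so did more of all genes tested. The sets tested are unlike, with 5949 genes in U-OEx LE, 2600 in E-OEX LE and 2851 in E-OEX GE. In 1 fit limited to the members in every table, the counts for E-OEX LE and U-OEx LE were close, as given at the end. Changes between genotypes were tested with limma on log2(value + 1) after the reads of the shared genes had been rescaled together, and a gene passed at a Benjamini-Hochberg adjusted p-value under 0.05 over all genes tested. Differences on this scale understate the change of genes with low values. In E-OEX LE against WT LE, 3 of 22 members passed (13.6%), where 10.7% of all genes tested passed. These were Ntn1, Sema3a and Sema6d, all higher, where 5.12% of all genes tested were called higher and 5.54% lower. In E-OEX GE against WT GE, 6 of 24 members passed (25%) where 23.5% of all genes did, with Epha4, Epha7 and Sema6d higher and Sema3a, Sema4a and Ntn1 lower, and 9.72% and 13.8% of all genes in those directions. These counts rest on single libraries. In E-OEX GE, 9 of 24 members passed without E-OEX GE replicate 1, Sema3g, Plxnd1 and Sema7a among them, 3 or 2 without replicate 2 or 3, and 1, 2 and 1 without WT GE replicate 1, 2 and 3. Without a filter on low values 2 passed there, Epha4 and Sema4a. In E-OEX LE, 1 member passed without WT LE replicate 3, E-OEX LE replicate 1 or E-OEX LE replicate 2.

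In U-OEx LE against WT LE, 20 of 39 members passed (51.3%) beside 56.9% of all genes. Of the members 13 were higher (33.3%, with 29.1% of all genes) and 7 lower (17.9%, with 27.8% of all genes). Between the overexpressing groups, U-OEx LE against E-OEX LE, 9 of 29 members passed (31%) beside 15% of all genes, with 4 higher and 5 lower in U-OEx and 6.97% and 8.05% of all genes in those directions. A share of members near that of all genes is no result about the families, and this holds for the E-OEX and U-OEx comparisons with WT. The median log2 difference of the members against WT was 0.24 for E-OEX in LE, 0.25 for E-OEX in GE and 0.31 for U-OEx, and that of all genes tested was -0.09, 0.05 and 0.09. The comparisons of E-OEX LE and of U-OEx LE with WT share their WT libraries.

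The lower calls in E-OEX GE did not depend alike on the scaling. All were lost on the deposited scale, while under quantile normalization those of Ntn1 and Sema4a were lost and that of Sema3a was not. On the deposited scale, where the median of all genes moved from 0.05 to 0.50, 6 members were called higher and 0 lower. WT LE replicate 2 had little weight in the luminal counts, since without it 3 of 22 members passed in E-OEX LE and 22 of 39 in U-OEx LE. Without E-OEX LE replicate 1, the gland-marked library, 1 of 22 members passed in E-OEX LE against WT LE (Sema3a), and 13 of 29 passed in U-OEx LE against E-OEX LE. In that comparison of the overexpressing groups 5 and 6 passed without E-OEX LE replicate 2 and 3, and 1, 5 and 2 without U-OEx LE replicate 1, 2 and 3. Without a filter on low values 3 passed there, with losses for Efna4, Epha7, Sema3e, Sema3g, Sema5a and Sema6b (adjusted p from 0.0509 to 0.0956). For the fits without 1 library or without the filter, here and above, the share of all genes passing is not given. Their counts are therefore no result about the families.

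Within a genotype, the split between GE and LE describes genes chosen for that split. The p-values of GE against LE, here and for single genes below, come from the libraries that show that difference. They are therefore no independent support. In WT, 40 of 41 members passed beside 97% of all listed genes, 28 with more RNA in GE and 12 with more in LE (56.6% and 40.5% of all listed genes). DESeq2 on the recovered reads gave 19 and 13. In E-OEX, 33 of 34 members passed beside 91.6% of all listed genes, 24 with more RNA in GE and 9 with more in LE (61.5% and 30.1% of all listed genes). DESeq2 gave 17 and 10, and quantile normalization 16 and 10. The median GE minus LE difference of the members was 1.42 in WT and 2.42 in E-OEX, and that of all listed genes 1.36 and 1.75. Of the 24 members listed in both genotypes, 23 (95.8%) had the same direction in both, as did 96.4% of the 2933 genes listed in both. The exception was Sema3a. Single libraries decided some calls within a genotype. In WT the calls of Efna2, Epha2, Ephb6 and Unc5a were each lost without at least 1 library (adjusted p from 0.0511 to 0.105). In E-OEX those of Efna5, Epha4, Nrp1, Robo2, Sema3a, Sema3b, Sema3d and Sema4a were (adjusted p from 0.0501 to 0.0949). Nrp1 and Sema3d did not pass there without E-OEX GE replicate 1 (adjusted p = 0.0763 and 0.0555), Epha2 not in WT without WT LE replicate 2 (-0.63, adjusted p = 0.0521), and Sema3e passed in E-OEX without E-OEX LE replicate 1 (-1.98, adjusted p = 0.0119). The calls of Nrp1, Robo2, Sema4a and Sema6d in E-OEX did not pass after rescaling or with edgeR or DESeq2.

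The glandular libraries also held more RNA of vessels and connective tissue. All 10 endothelial markers listed in WT and all 9 listed in E-OEX were higher in GE, with summed levels from 238 to 586 in WT LE, 3982 to 6857 in WT GE, 174 to 368 in E-OEX LE and 4825 to 13250 in E-OEX GE. All 9 and 11 stromal markers listed were also higher in GE. Summed stromal levels ran from 411 to 7874 in LE and from 35060 to 102900 in GE of WT, and from 556 to 2776 in LE and from 82320 to 98000 in GE of E-OEX. The part of these cells in the GE excess of any member was not tested, and more cells of a type and more RNA per cell cannot be told apart in such libraries.

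Among the netrins, Ntn1 (ENSMUSG00000020902), which encodes the secreted ligand netrin-1, was far higher in GE than in LE in WT. In LE of both overexpressing groups it was above its WT LE level. The gene lies at chr11:68209364-68400823 on the minus strand of GRCm38. Its scaled counts were 30.0, 32.8 and 31.3 in WT LE and 6540.0, 6520 and 8538 in WT GE. They were 424, 212 and 162 in E-OEX LE, 6394, 5767 and 5390 in E-OEX GE, and 1066, 877 and 790.4 in U-OEx LE. WT LE was far below every other group, and the LE libraries of the overexpressing groups lay between WT LE and the GE libraries without overlap.

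All 6414 genes in the WT comparison of GE with LE were listed for such a difference, so a small p-value there is no independent support. Ntn1 had the smallest p-value among them, with a 229.5-fold difference of the means (log2 7.79, SE 0.20, limma adjusted p = 6.75e-06). In E-OEX the same ratio was 22-fold (log2 4.57, SE 0.41). After rescaling, Ntn1 rose 7.34-fold in E-OEX LE (log2 2.75, SE 0.53, limma adjusted p = 0.0133) and 28.6-fold in U-OEx LE (log2 4.79, SE 0.27, limma adjusted p = 9.85e-06) against WT LE. U-OEx LE was 3.23-fold above E-OEX LE (log2 1.75, SE 0.39, limma adjusted p = 0.0219), a call lost without E-OEX LE replicate 2 or any 1 of the U-OEx libraries (adjusted p from 0.0542 to 0.115).

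Without E-OEX LE replicate 1, which had both the highest Ntn1 value and the highest gland marker sum of its group, the rise in E-OEX LE was 2.42 and did not pass (limma adjusted p = 0.0624). It did not pass either without WT LE replicate 3 (2.77, adjusted p = 0.0708) or without E-OEX LE replicate 2 (2.79, adjusted p = 0.0586). In U-OEx LE, 4 of 6 gland markers tested were higher than in WT LE and 1 was lower, with Foxa2 up by 5.66 on the log2 scale, while Spink1, Ttr and Prss29 had no reads in any U-OEx library. Summed gland markers ran from 49.7 to 102 over the 8 listed in WT LE and from 1040 to 1440 over the 7 listed in U-OEx LE. Their part in the Ntn1 levels was not tested. In GE, Ntn1 was 0.76 lower in E-OEX than in WT (SE 0.24, limma adjusted p = 0.0474), a call that passed in 3 of 11 alternative settings. It was lost with edgeR and DESeq2 (adjusted p = 0.0552 and 0.0519), on the deposited scale (-0.29, adjusted p = 0.31), under quantile normalization (-0.34, adjusted p = 0.236) and without any 1 library other than E-OEX GE replicate 1 (adjusted p from 0.0711 to 0.18).

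The other netrins were seen in part of the series. Ntn4, which encodes a netrin of basement membranes, was 791, 2067 and 1811 in E-OEX LE, 293, 302 and 358 in E-OEX GE, and 484, 1024 and 235 in U-OEx LE. It was higher in LE than in GE within E-OEX, by 2.18 on the log2 scale (SE 0.43, limma adjusted p = 0.00259), so the netrins Ntn1 and Ntn4 ran in opposite directions between the E-OEX epithelia. The U-OEx and E-OEX LE values of Ntn4 overlapped, and their difference of -1.69 did not pass (limma adjusted p = 0.0963). Without E-OEX LE replicate 1, the gland-marked library, it was -2.20 and passed (adjusted p = 0.0373). Ntn5 was listed in U-OEx LE only, at 145, 174 and 144, and its exons overlap those of Sec1 on the opposite strand.

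Of the netrin receptors, the 3 that could be compared in LE all rose in U-OEx, where 29.1% of all genes tested were called higher. All 3 were in the WT tables with more RNA in GE than in LE, and so few genes are no result about the receptors. Neo1, which encodes neogenin, a receptor of netrins and repulsive guidance molecules, was 727, 593 and 576 in WT LE, 1561, 1936 and 1752 in WT GE, and 1888, 1954 and 971 in U-OEx LE. The U-OEx values lay above every WT LE value, although replicate 3 was well below the others (log2 1.26, SE 0.33, limma adjusted p = 0.0112). The call was lost without WT LE replicate 3 (1.17, adjusted p = 0.0501).

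Unc5b, a netrin receptor also known from vessels, was 14.5, 22.5 and 4.47 in WT LE, 86.6, 99.5 and 184 in WT GE, and 71.7, 84.4 and 78.8 in U-OEx LE. It rose by 2.63 (SE 0.59, limma adjusted p = 0.00573). Unc5a was low throughout, at 4.14, 15.4 and 2.24 in WT LE, 22.4, 31.3 and 14.7 in WT GE and 42.3, 16.0 and 51.9 in U-OEx LE, and it rose by 2.37 (SE 0.74, limma adjusted p = 0.025). Its exons overlap those of Hk3 on the opposite strand, the strand setting of the counting is not given in the sources used here, and the call was lost without replicate 1 or 3 of either group (adjusted p from 0.053 to 0.0903). Dcc, the classical netrin receptor of axons, had no reads in the 3 E-OEX LE libraries and 8, 9 and 9 reads in E-OEX GE, which makes it at least 3.08-fold higher in GE when the LE libraries are set at 3 reads each. Unc5c had 3 reads or fewer in every U-OEx library.

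**Figure D2:**
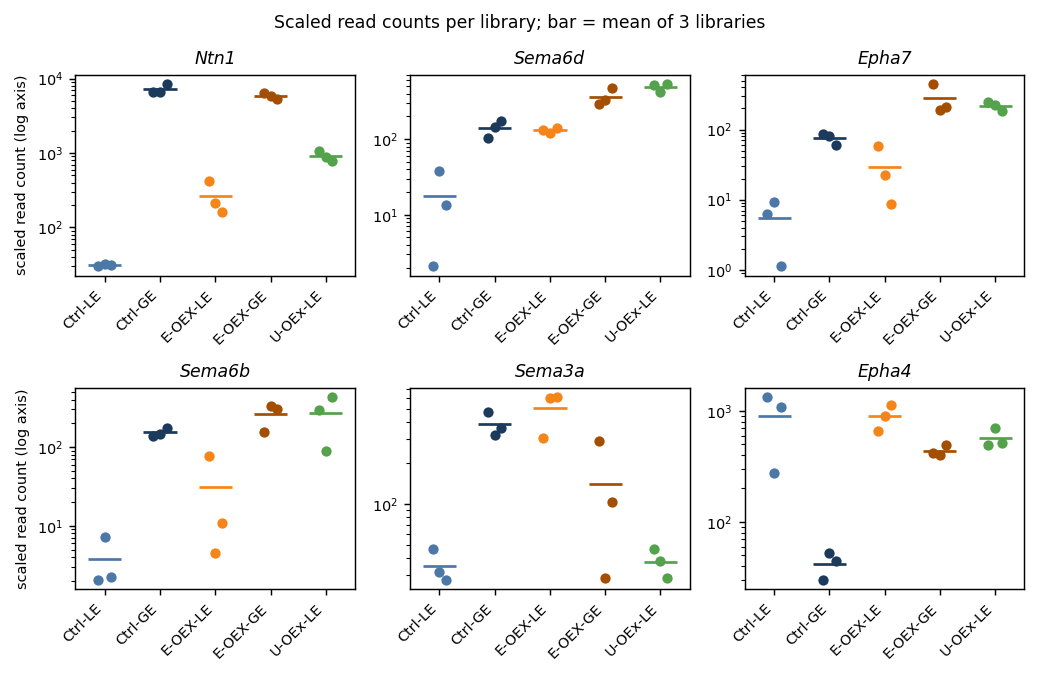
Scaled read counts (vertical log axis, deposited scale) of 6 guidance genes in each library (points) of the 5 groups (horizontal axis), with a bar at the mean of 3 libraries. Ntn1, Sema6d, Epha7 and Sema6b are lowest in WT LE and far higher in U-OEx LE, Sema3a is high in WT GE and E-OEX LE, and Epha4 is low in WT GE only. The sets of tables may have been scaled separately.

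The ephrins tested lay on both sides. In WT, Efnb2, Efna4 and Efna5 were higher in LE and Efna2 and Efnb1 in GE, and in E-OEX 2 of 4 were higher in each epithelium. Efnb2, which encodes the transmembrane ligand ephrin-B2, was 7786, 10269 and 10477 in WT LE and 509, 533 and 599 in WT GE, log2 -4.11 for GE minus LE (SE 0.18, limma adjusted p = 1.7e-05). In U-OEx LE it was 4409, 5824 and 3777, below every WT LE value (log2 -1.06, SE 0.22, limma adjusted p = 0.0041). Under quantile normalization that difference was -0.05 and did not pass (adjusted p = 0.872). Efnb1, for the related ligand ephrin-B1, rose in U-OEx LE, with 240.3, 201 and 141 in WT LE, 454, 606 and 433 in WT GE and 804, 734 and 647 in U-OEx LE (log2 1.91, SE 0.30, limma adjusted p = 0.00101).

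Efna4 and Efna5 encode ephrins held in the membrane by a lipid anchor, and both were higher in LE than in GE in each genotype. Efna4 was 810.1, 546 and 484 in WT LE, 102, 107 and 96.9 in WT GE, 992, 1375 and 1433 in E-OEX LE, 394, 178 and 204 in E-OEX GE, and 375, 609 and 557 in U-OEx LE. U-OEx LE lay below E-OEX LE (log2 -1.45, SE 0.35, limma adjusted p = 0.0301), a call that held without E-OEX LE replicate 1 and was lost without any 1 of the other 5 libraries (adjusted p from 0.0622 to 0.139). Neither group passed against WT LE.

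Efna5 was 229, 358 and 282 in WT LE, 38.0, 51.2 and 41.5 in WT GE, 159.7, 224 and 119 in E-OEX LE, 82.1, 40.2 and 54.3 in E-OEX GE, and 195, 124 and 153 in U-OEx LE. It fell by 0.90 in U-OEx LE (SE 0.30, limma adjusted p = 0.0316), a call lost with a replicate block (adjusted p = 0.0728), in the fit over all 5 groups (adjusted p = 0.102), without WT LE replicate 2 (-0.77, adjusted p = 0.0642) and without WT LE replicate 3 or any 1 U-OEx library (adjusted p from 0.0509 to 0.127). Efna2 was the ephrin-A gene with more RNA in GE, at 6.22, 31.7 and 4.47 in WT LE, 44.8, 43.6 and 34.6 in WT GE, 10, 11.8 and 16.2 in E-OEX LE, 50.1, 67.8 and 49.7 in E-OEX GE, and 14.7, 16.9 and 11.5 in U-OEx LE. None of its differences between genotypes passed.

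The Eph receptors held the largest glandular response to E-OEX. Epha4, which encodes a receptor for ephrins of both classes, was higher in LE than in GE in WT, with 1335, 274 and 1093 in LE and 30.2, 52.1 and 44.1 in GE. In E-OEX the LE values were 655, 896 and 1137 and the GE values 418, 405 and 493, and in U-OEx LE they were 494, 696 and 516. WT GE was low, E-OEX GE was not, and the LE groups overlapped one another.

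Epha4 rose 7.55-fold in E-OEX GE (log2 2.92, SE 0.28, limma adjusted p = 0.000137) and passed under all 11 alternative settings and all 6 fits that left out 1 library. In E-OEX LE its difference was 0.07 (SE 0.66, limma adjusted p = 0.954). In U-OEx LE it was 0.41 below WT LE without passing, and passed without WT LE replicate 2 (-1.16, adjusted p = 0.00907). The difference between the E-OEX effects in GE and LE, tested as the interaction of genotype and epithelium, was 3.13 (SE 0.73, limma adjusted p = 0.015). It was 3.85 without WT LE replicate 2, whose Epha4 value was the low one of its group, and it just missed the threshold without WT LE replicate 3 (2.85, adjusted p = 0.05). Beside it, 4 of 8 smooth muscle markers were higher in E-OEX GE than in WT GE, 4 of 6 gland markers were lower, and 0 of 9 stromal and 0 of 9 endothelial markers passed with limma, edgeR or DESeq2, none at an unadjusted limma p under 0.05. Their part in the Epha4 result was not tested.

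Epha7, which encodes a receptor mainly for ephrin-A ligands, was low in WT LE at 6.22, 9.22 and 1.12 and reached 246, 227 and 182 in U-OEx LE. It was 87.6, 80.6 and 60.6 in WT GE, 57.5, 22.7 and 8.63 in E-OEX LE and 452, 192 and 208 in E-OEX GE. The rise in U-OEx LE was 38.8-fold (log2 5.32, SE 0.62, limma adjusted p = 0.000215), and E-OEX GE exceeded WT GE by 1.32 (SE 0.40, limma adjusted p = 0.0385), which was lost without a filter on low values (adjusted p = 0.0695), in the fit over all 5 groups (adjusted p = 0.297) and without any 1 of the WT GE libraries (adjusted p from 0.0742 to 0.121). Without E-OEX GE replicate 1, the luminal-marked library with the value of 452, it was 0.87 and at the threshold (adjusted p = 0.05). U-OEx LE was also above E-OEX LE (log2 3.07, SE 0.61, limma adjusted p = 0.0158), which was lost without U-OEx LE replicate 1 or 3 (adjusted p = 0.0903 and 0.0678). The E-OEX rise in LE, 1.99, did not pass (limma adjusted p = 0.195).

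Promoter sequences are shown for Epha7 and Epha4, which had the largest rise among the Eph receptors in U-OEx LE and in E-OEX GE, and for Sema6d, the member that rose against WT in all 3 tests of overexpression. Each is the 250 bases before the transcription start from RefSeq (GRCm38.p6), written 5′ to 3′ on the strand of the gene, with capitals for the motifs searched on both strands: TGGGAA, which reads TTCCCA in reverse and is the core of the site bound by RBPJ, the DNA-binding partner of Notch, the longer form GTGGGAA, which contains that core, and the palindrome CACGTG, an E-box of the kind bound by Hey and Hes proteins. Epha7 lies at chr4:28812881-28813130 (plus strand), Epha4 at chr1:77515089-77515338 (minus strand) and Sema6d at chr2:124089719-124089968 (plus strand).
Epha7: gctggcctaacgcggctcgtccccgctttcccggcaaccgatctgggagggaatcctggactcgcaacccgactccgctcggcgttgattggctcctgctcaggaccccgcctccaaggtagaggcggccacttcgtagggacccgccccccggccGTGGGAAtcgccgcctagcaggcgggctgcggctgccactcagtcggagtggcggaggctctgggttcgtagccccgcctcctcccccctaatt
Epha4: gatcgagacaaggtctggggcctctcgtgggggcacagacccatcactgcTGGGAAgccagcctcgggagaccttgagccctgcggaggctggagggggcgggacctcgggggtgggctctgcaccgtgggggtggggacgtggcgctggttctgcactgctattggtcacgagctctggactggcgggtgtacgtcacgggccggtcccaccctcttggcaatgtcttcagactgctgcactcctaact
Sema6d: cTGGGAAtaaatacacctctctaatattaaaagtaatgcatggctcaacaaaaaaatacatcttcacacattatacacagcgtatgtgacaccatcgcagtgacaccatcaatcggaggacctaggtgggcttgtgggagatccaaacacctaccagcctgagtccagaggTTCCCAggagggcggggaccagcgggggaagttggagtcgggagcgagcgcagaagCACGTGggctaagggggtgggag
The Epha7 window held 1 GTGGGAA, 94 bases before the start. The Epha4 window held 1 TGGGAA, and the Sema6d window 2 TGGGAA, 1 of them in reverse, and 1 CACGTG. None of these letters were in the RefSeq windows of Sema6b or Sema3a, or in the other start window listed for Sema6d.

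RefSeq windows matched 58 of the 69 members. Ntn1, Sema3b, Sema3f and Sema6a were among those without a window and were not searched. GTGGGAA was in 2 of the 58 (3.45%) and in 6.18% of all 27025 genes with a window, TGGGAA in 12 (20.7%) and 24.1%, and CACGTG in 4 (6.9%) and 6.86%. A match describes letters in a window and not a bound site.

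The remaining Eph receptors were analysed in fewer groups. Epha1 was 1166, 1003 and 1060 in WT LE, 375, 389.6 and 342 in WT GE and 566, 711 and 501 in U-OEx LE, and it fell by 0.89 in U-OEx LE (SE 0.24, limma adjusted p = 0.0137), which was lost without U-OEx LE replicate 1 or 3 (adjusted p = 0.0541 and 0.0547). Its exons overlap those of Zyx on the opposite strand. Epha6 was 45.6, 13.3 and 38.0 in WT LE, had no reads in WT GE and had 1, 0 and 1 reads in U-OEx LE, at least 12.1-fold lower than in WT LE when the U-OEx libraries are set at 3 reads each. So Epha1 and Epha6 fell in the same LE libraries in which Epha7 rose.

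The EphB receptors tested in LE, Ephb4 and Ephb6, both rose in U-OEx, where 29.1% of all genes tested were called higher. Both had more RNA in GE than in LE in WT, and so few genes are no result about the receptors. Ephb4, the usual receptor of ephrin-B2, was 667, 485 and 384 in WT LE, 1019, 1165 and 1128 in WT GE and 1147, 1385 and 955 in U-OEx LE (log2 1.18, SE 0.30, limma adjusted p = 0.0114), and its exons overlap those of Zan on the opposite strand. Ephb6, a receptor whose kinase domain is inactive, was 83.9, 228 and 84.9 in WT LE, 295, 338 and 233 in WT GE and 539, 583 and 411 in U-OEx LE (log2 2.07, SE 0.41, limma adjusted p = 0.00301). The WT LE and U-OEx LE values did not overlap for either gene. Epha2 was 1.02 higher on the log2 scale and did not pass (limma adjusted p = 0.0538), and passed without WT LE replicate 2 (1.46, adjusted p = 0.00335) or with a replicate block (adjusted p = 0.0339).

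Epha8 and Epha3 were read in GE almost alone. Epha8 had no reads in WT LE, 6.81, 14.2 and 6.92 in WT GE, 0, 1.82 and 0 in E-OEX LE and 19.0, 13.8 and 19.7 in E-OEX GE, so that GE was higher by at least 2.93-fold in WT and 6.03-fold in E-OEX. Epha3 had no reads in E-OEX LE and 9.01, 21.8 and 15 in E-OEX GE, at least 5.27-fold higher. In LE both genes were at or under 3 reads in every library.

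The secreted semaphorins gave the only member whose epithelial preference turned over. Sema3a, which encodes the founding repulsive semaphorin, was 46.6, 31.7 and 27.9 in WT LE and 476, 319 and 359 in WT GE. In E-OEX it was 307, 596 and 609.8 in LE and 290.4, 28.7 and 104 in GE, and in U-OEx LE 46.9, 38.2 and 28.8. WT favoured GE (log2 3.42, SE 0.31, limma adjusted p = 0.000117) and E-OEX favoured LE (log2 -2.32, SE 0.78, limma adjusted p = 0.0224), with no overlap of the epithelia in either genotype. The E-OEX call passed in all 10 alternative settings, and was lost without replicate 2 or 3 of either epithelium (adjusted p from 0.0604 to 0.0677), with differences from -3.11 to -1.46 over the fits that left out 1 library.

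In E-OEX LE, Sema3a rose 12.7-fold over WT LE (log2 3.59, SE 0.54, limma adjusted p = 0.00477), and passed under all 11 alternative settings and all 6 fits that left out 1 library. In E-OEX GE it fell by 2.43 (SE 0.69, limma adjusted p = 0.0296), a call lost in edgeR (adjusted p = 0.0726), without a filter on low values (adjusted p = 0.0761), on the deposited scale (-1.97, adjusted p = 0.0559) and without any 1 library other than E-OEX GE replicate 1 (adjusted p from 0.0568 to 0.142). E-OEX GE replicate 1, with the high luminal marker sum, also had the highest Sema3a of its group, and without it the fall was 3.29 (adjusted p = 0.000669). The interaction was -5.73 (SE 0.92, limma adjusted p = 0.00215).

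U-OEx LE did not share the Sema3a rise, with a difference from WT LE of 0.08 (SE 0.44, limma adjusted p = 0.885), and lay 14.8-fold below E-OEX LE (log2 -3.79, SE 0.46, limma adjusted p = 0.00419). Sema3a and Ntn1 were called higher in LE and lower in GE of E-OEX, and in GE neither call held without any 1 library other than E-OEX GE replicate 1. Of the 24 members in the interaction, 3 passed (12.5%) beside 10.7% of all genes, with Epha4 positive and Ntn1 and Sema3a negative (5.83% and 4.91% of all genes). The Ntn1 interaction was -3.21 (SE 0.49, limma adjusted p = 0.00166).

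**Figure D3:**
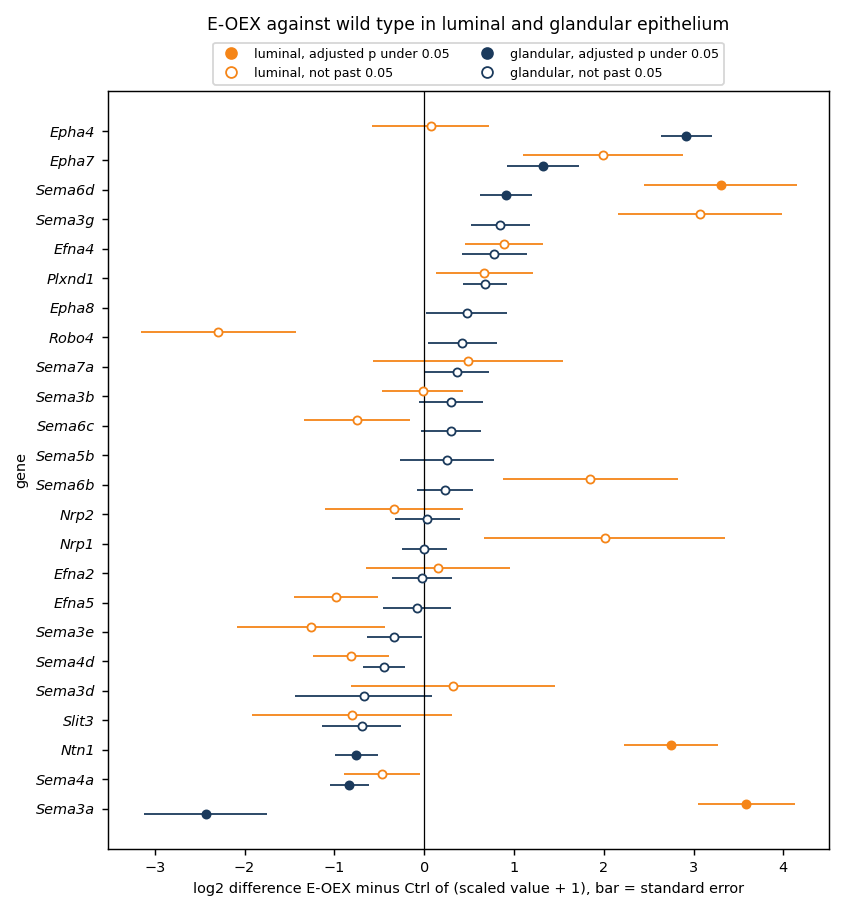
Log2 difference between E-OEX and WT (horizontal axis, from log2(rescaled value + 1)) of the guidance genes tested in GE, with the same difference in LE where it was tested, as points with standard error bars, filled at a limma adjusted p-value under 0.05. Sema3a and Ntn1 lie to the right in LE (3.59 and 2.75) and to the left in GE (-2.43 and -0.76), and Epha4 lies to the right in GE (2.92) and near 0 in LE (0.07).

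Sema3e and Sema3c, also of class 3, fell in U-OEx LE. Sema3e, the ligand of plexin-D1, was 536, 159.8 and 489.5 in WT LE, 64.2, 69.2 and 61.4 in WT GE, 53.9, 179.8 and 441 in E-OEX LE, 81.1, 58.6 and 74.9 in E-OEX GE and 6.43, 7.11 and 17.3 in U-OEx LE. Every U-OEx LE value was under every other LE value, 39.8-fold under WT LE (log2 -5.10, SE 0.61, limma adjusted p = 0.000238) and 25.2-fold under E-OEX LE (log2 -4.12, SE 0.79, limma adjusted p = 0.015) by the means. The second call was lost without U-OEx LE replicate 1 or 3 (adjusted p = 0.0848 and 0.0567). Plxnd1, the gene of its receptor, rose in the same comparison with WT. Sema3c was 1312, 1976 and 2225 in WT LE, 4609, 3453 and 4073 in WT GE and 590, 786 and 485 in U-OEx LE, a fall of 1.58 (SE 0.27, limma adjusted p = 0.0014).

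Sema3f, a ligand of Nrp2, rose instead. It was 1403, 905 and 691 in WT LE, 1868, 2024 and 2150.0 in WT GE and 5274, 6598 and 5881 in U-OEx LE, a 5.71-fold rise over WT LE (log2 2.60, SE 0.32, limma adjusted p = 0.000264). Every U-OEx value was above every WT LE value. Sema3g, a semaphorin known from arteries, was 2.07, 7.17 and 4.47 in WT LE, 198, 160.2 and 185 in WT GE, 147, 57.2 and 11.9 in E-OEX LE, 253, 553 and 645 in E-OEX GE and 0, 0.889 and 4.80 in U-OEx LE. E-OEX LE was above WT LE by 3.07 without passing in limma (adjusted p = 0.0619), and this passed with edgeR (adjusted p = 0.0377), DESeq2 (adjusted p = 0.000994), quantile normalization (adjusted p = 0.0357), the fit over all 5 groups (adjusted p = 0.0189) and without E-OEX LE replicate 3 (4.16, adjusted p = 0.0128). Without that library its interaction, -1.91 and not past the threshold in all libraries, was -2.86 (adjusted p = 0.0318). E-OEX GE was above WT GE by 0.85 without passing (adjusted p = 0.0947), and passed without E-OEX GE replicate 1 (1.19, adjusted p = 0.00563), with DESeq2 (adjusted p = 0.0423) and on the deposited scale (1.31, adjusted p = 0.0244). U-OEx LE was below E-OEX LE (log2 -4.59, SE 0.97, limma adjusted p = 0.0191), although the E-OEX LE values spread widely, with the highest in replicate 1. The call was lost without E-OEX LE replicate 2 or U-OEx LE replicate 1 or 2 (adjusted p from 0.0567 to 0.0972).

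Sema3b and Sema3d did not pass between genotypes, although Sema3b did in U-OEx LE against WT LE without WT LE replicate 3 (-0.97, adjusted p = 0.0492). Sema3b was 501, 579.7 and 343 in WT LE, 145, 226 and 84.8 in WT GE, 448, 737 and 419 in E-OEX LE, 263, 232 and 226 in E-OEX GE and 248, 394 and 236 in U-OEx LE. It was higher in LE in both genotypes, in E-OEX by a call that was lost without E-OEX LE replicate 2 or E-OEX GE replicate 2 or 3 (adjusted p from 0.0604 to 0.0653). Sema3d, higher in GE than in LE in both genotypes, was 0, 20.5 and 7.82 in WT LE, 97.3, 61.6 and 157 in WT GE, 18.3, 2.72 and 5.40 in E-OEX LE, 122, 19.5 and 245 in E-OEX GE and 3.68, 8 and 2.88 in U-OEx LE.

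Of the membrane semaphorins, the class 6 genes changed most. Sema6d, which encodes a ligand of plexin-A1, was 2.07, 37.9 and 13.4 in WT LE, 103, 145 and 174 in WT GE, 132, 119.9 and 139 in E-OEX LE, 290.4, 329 and 482 in E-OEX GE and 526, 427 and 544 in U-OEx LE. Every library of the overexpressing groups was above every WT library of the same epithelium. It rose by 5.37 in U-OEx LE (SE 0.79, limma adjusted p = 0.000678), by 3.30 in E-OEX LE (SE 0.85, limma adjusted p = 0.0363) and by 0.91 in E-OEX GE (SE 0.28, limma adjusted p = 0.0448). The E-OEX calls were less stable, with losses in edgeR and without filtering of low values in both epithelia, with a pseudocount of 0.1 in LE (adjusted p = 0.052), and under quantile normalization and in the fit over all 5 groups in GE (adjusted p = 0.063 and 0.48). The Sema6d interaction of -2.08 did not pass (adjusted p = 0.218), and passed without WT LE replicate 2 (-2.93, adjusted p = 0.0322). In LE the call was lost without E-OEX LE replicate 1, 2 or 3 or WT LE replicate 3 (adjusted p from 0.0597 to 0.129), and in GE without any 1 library other than E-OEX GE replicate 1 (adjusted p from 0.0522 to 0.136). U-OEx LE exceeded E-OEX LE by 1.79 (SE 0.32, limma adjusted p = 0.0118), which was lost without U-OEx LE replicate 1 or 3 (adjusted p = 0.0833 and 0.0685).

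Sema6b was 2.07, 7.17 and 2.24 in WT LE, 136, 148 and 176 in WT GE, 77.6, 4.54 and 10.8 in E-OEX LE, 155, 328 and 301 in E-OEX GE and 292, 88.0 and 432 in U-OEx LE. It had the largest rise of any member in U-OEx LE, 71.6-fold (log2 5.68, SE 0.69, limma adjusted p = 0.000257). In E-OEX LE the only high value was that of replicate 1, and the difference of 1.85 did not pass (limma adjusted p = 0.268). U-OEx LE exceeded E-OEX LE by 3.59 (SE 0.92, limma adjusted p = 0.0351), which was lost with edgeR (adjusted p = 0.0707) and without replicate 2 or 3 of E-OEX LE or 1 or 3 of U-OEx LE (adjusted p from 0.0922 to 0.146).

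Sema6a, for another class 6 ligand of A-type plexins, did the reverse in U-OEx, from 3208, 2950 and 3522 in WT LE, with 224, 250.2 and 343 in WT GE, to 316, 359 and 317 in U-OEx LE, 9.94-fold lower than WT LE (log2 -3.30, SE 0.21, limma adjusted p = 1.47e-05). Sema6c was 57.0, 50.2 and 44.7 in WT LE, 123, 203 and 101 in WT GE, 31.9, 50.9 and 22.7 in E-OEX LE, 156, 302 and 262 in E-OEX GE and 28.5, 57.8 and 60.5 in U-OEx LE, with no call between genotypes. Class 6 genes therefore rose, fell or did not pass within the same LE libraries.

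Sema4a and Sema4d, membrane semaphorins also known from immune cells, had opposite preferences. Sema4a favoured GE, at 994, 1724 and 1380 in WT LE, 2874, 2917 and 3263 in WT GE, 979.5, 829 and 1567 in E-OEX LE, 2119, 2679 and 2248 in E-OEX GE and 1945, 965 and 2504 in U-OEx LE. It fell by 0.83 in E-OEX GE (SE 0.22, limma adjusted p = 0.0223), and did not pass on the deposited scale (-0.37, adjusted p = 0.204), under quantile normalization (adjusted p = 0.166), in the fit over all 5 groups or without WT GE replicate 1 or 3 or E-OEX GE replicate 3 (adjusted p from 0.0686 to 0.131). Sema4d favoured LE, at 4266, 2383 and 3190 in WT LE, 851, 1085 and 1028 in WT GE, 1870, 1900 and 2408 in E-OEX LE, 1075, 1031 and 888 in E-OEX GE and 2568, 1891 and 2547 in U-OEx LE, with no call between genotypes.

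Sema7a, which is anchored by a lipid, was 0, 14.3 and 5.59 in WT LE, 164, 162 and 185 in WT GE, 16.4, 3.63 and 3.24 in E-OEX LE, 158, 368 and 481 in E-OEX GE and 23.9, 18.7 and 17.3 in U-OEx LE. Its difference of 2.18 between U-OEx LE and WT LE did not pass (limma adjusted p = 0.0774) and passed without WT LE replicate 2 (3.03, adjusted p = 0.0204) or with a pseudocount of 5 (1.32, adjusted p = 0.0494). Against E-OEX LE it passed without E-OEX LE replicate 1 (2.06, adjusted p = 0.0422), and E-OEX GE against WT GE passed without E-OEX GE replicate 1 (0.77, adjusted p = 0.0384). Sema5a was 184, 135 and 501 in E-OEX LE, 1128, 1121 and 1354 in E-OEX GE and 34.9, 30.2 and 83.6 in U-OEx LE, and U-OEx LE was lower than E-OEX LE (log2 -2.49, SE 0.59, limma adjusted p = 0.0271). That call was lost without E-OEX LE replicate 3 or any 1 U-OEx library (adjusted p from 0.0568 to 0.121). Its relative Sema5b was read in GE almost alone, at 38.0, 55.0 and 54.5 in WT and 29.0, 106 and 165 in E-OEX, at least 15.5-fold and 34.4-fold above LE. Sema4g was 10.4, 12.3 and 7.82 in WT LE, 134, 197 and 174 in WT GE and 16.5, 32.0 and 21.1 in U-OEx LE.

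Plexins and neuropilins are the semaphorin receptors, and 1 of each passed in U-OEx LE. Plxnd1 was 201, 101 and 155 in WT LE, 469, 566 and 689.5 in WT GE, 438, 261 and 162 in E-OEX LE, 1008, 1161 and 1691 in E-OEX GE and 613, 844 and 697 in U-OEx LE. It was the 1 plexin of 4 tested that rose in U-OEx LE (log2 2.25, SE 0.34, limma adjusted p = 0.000835), where 29.1% of all genes tested were called higher. Against E-OEX LE, U-OEx LE was 1.29 higher without passing (limma adjusted p = 0.0572), and passed without E-OEX LE replicate 1 (1.57, adjusted p = 0.0205), with DESeq2 (adjusted p = 0.0291) and under quantile normalization (adjusted p = 0.0488). In E-OEX GE its difference of 0.68 did not pass (adjusted p = 0.0783), and passed without E-OEX GE replicate 1 (0.77, adjusted p = 0.0437), on the deposited scale (1.14, adjusted p = 0.0136) and under quantile normalization (adjusted p = 0.039). Plxna2, Plxna3 and Plxnc1 had differences from -0.29 to 0.25 there and did not pass.

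Plxnb2, a receptor for class 4 semaphorins, and Plxna1 were higher in LE than in GE within E-OEX. Plxnb2 was 14641, 13446 and 13603 in E-OEX LE, 7391, 5796 and 5602 in E-OEX GE and 13582, 13133 and 11028 in U-OEx LE. Plxna1 was 2899, 3701 and 2775 in E-OEX LE, 1361, 1279.6 and 1223 in E-OEX GE and 3984, 4119 and 3192 in U-OEx LE. Neither differed between the overexpressing groups by a passing amount.

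Nrp1 and Nrp2 encode neuropilins, co-receptors of class 3 semaphorins that endothelial cells also carry. Nrp2 was 13.5, 33.8 and 17.9 in WT LE, 361, 287 and 542 in WT GE, 51.1, 10.9 and 9.71 in E-OEX LE, 467, 361 and 945 in E-OEX GE and 95.6, 51.5 and 91.2 in U-OEx LE, and it rose by 1.85 in U-OEx LE (SE 0.47, limma adjusted p = 0.0107). Against E-OEX LE the difference of 1.93 did not pass (limma adjusted p = 0.0739), and passed without E-OEX LE replicate 1 (2.58, adjusted p = 0.0131). Nrp1 was 23.8, 11.3 and 1.12 in WT LE, 241, 321 and 239.7 in WT GE, 53.9, 196 and 4.32 in E-OEX LE, 310.5, 317 and 499 in E-OEX GE and 24.8, 59.5 and 23.1 in U-OEx LE, with no call between genotypes in all libraries and 1 without WT LE replicate 1 (2.76 in U-OEx LE against WT LE, adjusted p = 0.0264).

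Among endothelial markers, 2 of 10 (Pecam1 and Tek) were higher than in WT LE, with summed levels from 316 to 388 in U-OEx LE. Other cell markers did move there, with 3 of 4 immune markers tested higher (Cd74 3.21, Adgre1 2.13 and Lyz2 1.60) and 4 of 5 general epithelial markers lower. Summed immune markers ran from 782 to 1437 over the 4 listed in WT LE and from 4833 to 10000 over the 10 listed in U-OEx LE. Their part in the U-OEx results of the members was not tested.

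No Slit or Robo gene passed between genotypes in the main limma fits. Slit3, for a secreted Slit, was 3.11, 45.1 and 12.3 in WT LE, 361, 911 and 276 in WT GE, 29.2, 9.08 and 1.08 in E-OEX LE, 223, 484 and 519 in E-OEX GE and 11, 47.1 and 37.5 in U-OEx LE. Robo4, the Robo receptor of vessels, was 1.04, 15.4 and 5.59 in WT LE, 187, 192 and 318 in WT GE, 0, 0 and 1.08 in E-OEX LE, 217, 502 and 668 in E-OEX GE and 3.68, 2.67 and 0 in U-OEx LE. It was at least 159-fold higher in GE than in LE within E-OEX, the widest bound among the members. The interaction of genotype and epithelium for Robo4 was 3.13 and did not pass (limma adjusted p = 0.0682). It passed with edgeR (4.97, adjusted p = 0.0451), DESeq2 (5.30, adjusted p = 0.00378) or a replicate block (adjusted p = 0.0445), without WT LE replicate 1 (3.91, adjusted p = 0.00892) and without E-OEX LE replicate 3 (3.48, adjusted p = 0.0483). In E-OEX LE against WT LE, Robo4 passed only without WT LE replicate 1 (-3.09, adjusted p = 0.0324) or in the fit over all 5 groups (-2.62, adjusted p = 0.0346). Robo2 was 62.1, 69.0 and 22.7 in E-OEX LE, 124, 138 and 203 in E-OEX GE and 30.3, 132 and 54.7 in U-OEx LE, and Robo3 had 3 reads or fewer in every U-OEx library.

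**Figure D4:**
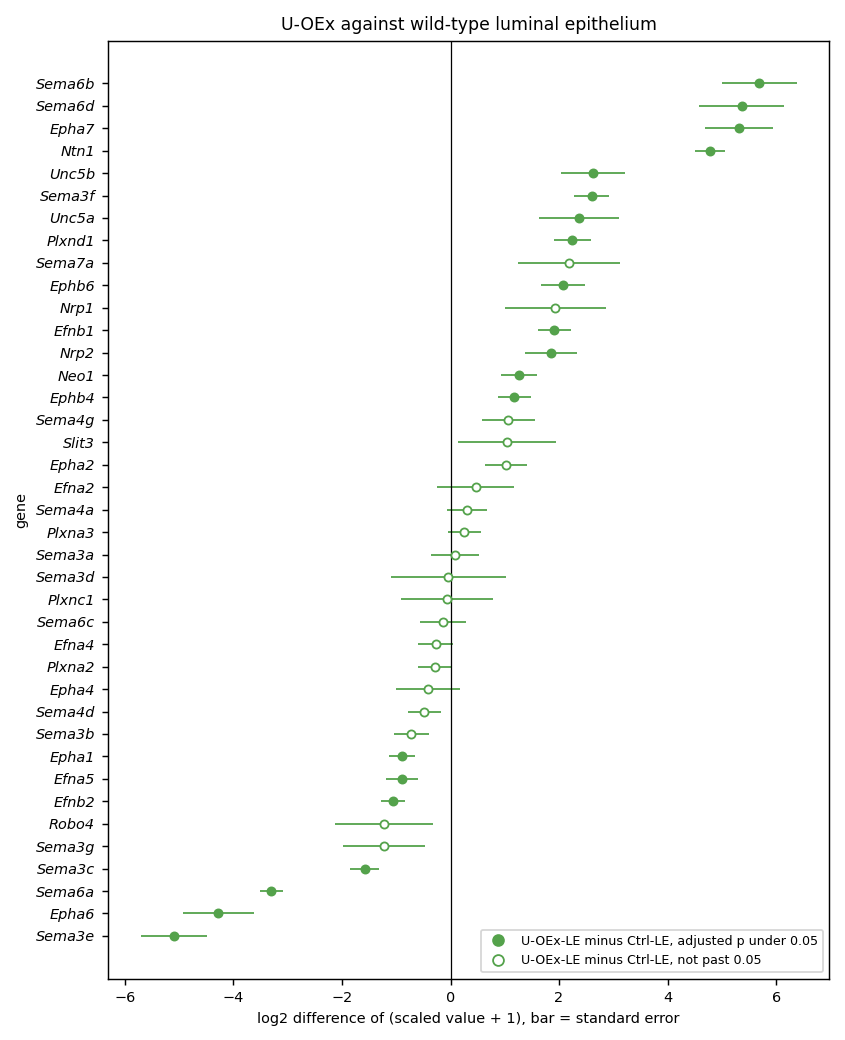
Log2 difference between U-OEx LE and WT LE (horizontal axis, from log2(rescaled value + 1)) of the 39 guidance genes tested (vertical axis, sorted), as points with standard error bars, filled at a limma adjusted p-value under 0.05. Sema6b, Sema6d, Epha7 and Ntn1 stand apart at the top with 5.68, 5.37, 5.32 and 4.79, and Sema3e (-5.10), Epha6 and Sema6a (-3.30) at the bottom.

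The U-OEx tables list nearly all genes and give the repertoire of this LE, with levels compared between genes per kilobase of annotated exon (GENCODE M21). Of 65 members, 22 were above 100 scaled reads per kb, and 4 (Epha6, Plxna4os2, Robo3 and Unc5c) had 3 reads or fewer in each library. The highest level per kb in each role was that of Plxnb2 among plexins (1630 ± 177, SD, n = 3), Sema3f among secreted semaphorins (1139 ± 128), Efnb2 among ephrin-B genes (681 ± 153), Sema4a among membrane semaphorins (334 ± 144) and Efna4 among ephrin-A genes (321 ± 77). Sema4a did not differ beyond its spread from Sema4d (304 ± 50) or Sema4c (304 ± 72), nor Efna4 from Efna1 (303 ± 17).

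Receptors of the other ligands were lower per kb. Ephb4 led the EphB genes at 250.5 ± 46.5, Neo1 the netrin receptors at 184 ± 63, Epha2 the EphA genes at 181 ± 27 and Robo1 the Robo genes at 92.9 ± 16.6. Of the netrins, Ntn4 stood at 155 ± 108 and Ntn1 at 145 ± 22, within the spread of each other. Slit2 led the Slits at 29.9 ± 3.44 and Nrp2 the neuropilins at 6.71 ± 2.05, the lowest of these leading genes. Exons of Plxnb1 (908 ± 99.2), Efna4, Sema4c and Ephb4 overlap those of another gene on the opposite strand. Without the strand setting of the counting, their reads cannot be told apart from those of that gene.

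**Figure D5:**
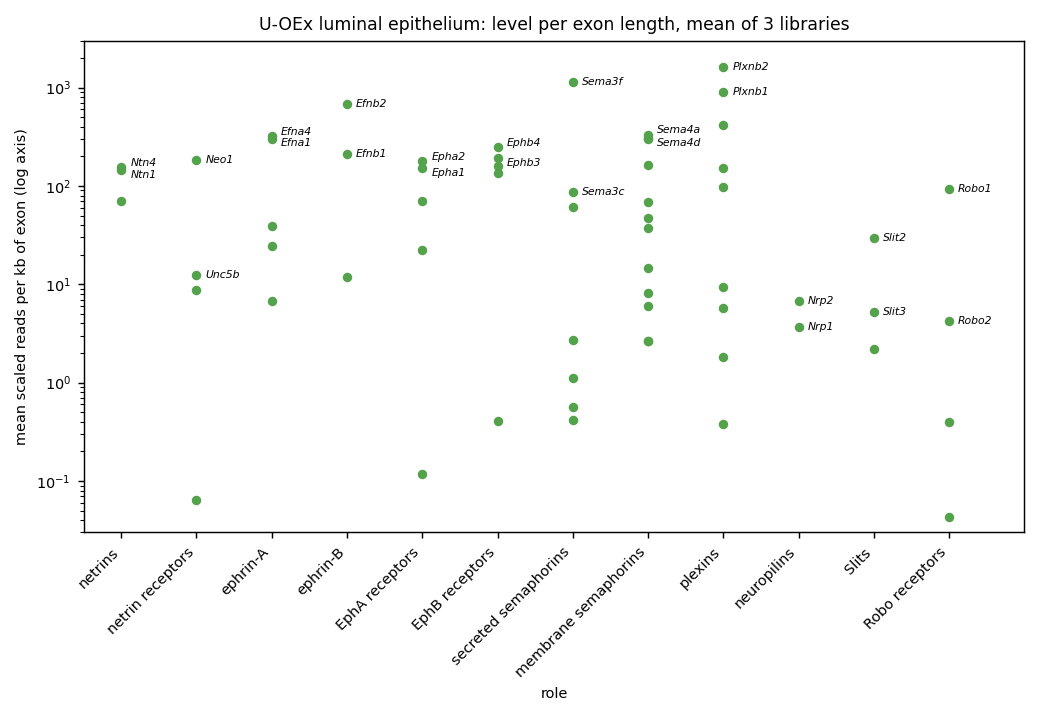
Mean level of the guidance genes in U-OEx LE (vertical log axis, scaled reads per kb of exon, mean of 3 libraries) by role (horizontal axis), with the top 2 genes of each role named. Plxnb2 (1630) and Sema3f (1139) are highest, and the neuropilins reach 6.71.

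The remaining members of the U-OEx list, which no other table holds, included Plxnb1, Ephb2, Ephb3, Robo1, Slit2, Sema4b, Sema4c, Sema4f, Efna1 and Efna3. Plxnb1, for a receptor of Sema4d, was 8892, 9563 and 7685, and Ephb2, for a receptor of B-type ephrins, was 2062, 2179.9 and 1755. Efnb3 and Ephb1, listed in E-OEX and U-OEx, were higher in GE than in LE within E-OEX by 2.16 and 2.56 on the log2 scale (limma adjusted p = 0.00257 and 0.00464).

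Other genes of these pathways were counted from 2 lists, 18 partners (further ligands, co-receptors and binding proteins) and 50 effectors (cytoplasmic proteins downstream of the receptors). In E-OEX LE against WT LE, 1 of 6 partners tested rose, the netrin-binding adhesion receptor Dscam (log2 4.19, SE 0.76, limma adjusted p = 0.0116), and 0 of 10 effectors passed with limma or edgeR, where 2 had an unadjusted limma p under 0.05 and 2 passed with DESeq2. In E-OEX GE against WT GE, 1 of 6 partners rose, Flrt3 (1.90), and 1 of 10 effectors fell, the EphA4 effector Chn1 (-1.70). Of all genes tested, 10.7% passed in E-OEX LE, and 9.72% were called higher and 13.8% lower in E-OEX GE. Counts this small are no result about the lists.

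In U-OEx LE against WT LE, 4 of 9 partners were higher and 1 lower and 9 of 19 effectors were higher and 4 lower, where 29.1% of all genes tested were called higher and 27.8% lower. The partners that rose were Flrt3 (4.42), an adhesion protein that binds Unc5 receptors, the netrin-G genes Ntng2 (4.41) and Ntng1 (2.73), and Dscam (2.92), and Draxin, for a secreted netrin-binding protein, fell by 4.48. The largest effector differences were those of the plexin-binding GTPase Rnd1 (4.93), the adaptor Sh2d3c (4.51), the exchange factor Vav2 (3.83), which rose, and the semaphorin effector Mical2 (-4.42), which fell. Against E-OEX LE, 0 of 8 partners passed with limma, edgeR or DESeq2, 3 having an unadjusted limma p under 0.05, and 1 of 13 effectors passed (Crmp1, 2.60). In the interaction 0 of 6 partners passed with any of these tools, 0 having an unadjusted limma p under 0.05, and 1 of 10 effectors did (Chn2, -2.50). Of all genes tested, 15% passed in U-OEx LE against E-OEX LE and 10.7% in the interaction, so these counts are no result about the lists.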

How the data were processed

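The members and gene lists were chosen with earlier results of these data known. Genes given with values are Ntn1, every member past the threshold between genotypes or in the interaction, the members in all tables, the 10 with the largest GE to LE differences in each direction, and the member with the highest level of each role in U-OEx. The builds GRCm38 and mm10 come from the submitters' processing notes, and the aligner, counter and scaling are not given in the sources used here. The authors' deposited values are a signal: read counts divided by 1 factor per library. Dividing by the smallest positive value of a library gave whole reads within 0.01 for 100% of values.

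Within a genotype and in the interaction the deposited scale was used, and between genotypes the recovered reads of shared genes were rescaled with TMM in edgeR (4.0.16). limma (3.58.1, eBayes with trend, R 4.3.3) tested log2(value + 1) of genes with a mean of at least 1 in each of 7 comparisons, with Benjamini-Hochberg adjustment and a threshold of 0.05. Scripts were tested on simulated data. An exact permutation test of 3 libraries against 3 cannot go below p = 0.1. A group with 3 reads or fewer in each library was taken as at the floor, and bounds are computed with 3 reads per library and cover counting error only. Epha8, Sema5b and Robo3 were too low to be tested in 1 comparison each. Gene positions and exon lengths are from GENCODE M21. Exons of 13 members overlap another gene on the opposite strand. Alternatives were other filters, pseudocounts, scalings, edgeR, DESeq2 (1.42.0), a replicate block, 1 fit over all groups and leaving out each library. The values of 1 luminal marker are not reported here.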

Additional observations from a re-analysis of the deposited data

Results flagged for a closer look

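The effect of E-OEX differed between the epithelia for 3 of 24 members (12.5%) by limma's interaction test. This share is near the 10.7% of all 2933 genes tested, and is no result about the families. Only genes listed in both the WT and E-OEX tables could enter that test. The genotype effect in GE minus that in LE was -5.73 for Sema3a, -3.21 for Ntn1 and 3.13 for Epha4 on the log2 scale. For Sema3a and Ntn1 the call held in all 10 alternatives and all 12 fits that left out 1 library. For Epha4 it held in all 10 alternatives and in 11 of 12 such fits.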

How the results depend on the processing

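No called direction reversed in any alternative. In 1 fit over all 5 groups, limited to the 22 members in every table, 19 members passed between the WT epithelia and 18 between the E-OEX epithelia, and against WT 6 passed for E-OEX in LE, 2 for E-OEX in GE and 7 for U-OEx. Without a filter on low values, 2 passed in E-OEX GE against WT and 3 in U-OEx LE against E-OEX LE, and edgeR on the recovered reads gave 3 in E-OEX GE. With libraries left out in turn the counts ran from 36 to 39 between the WT epithelia, 25 to 34 between the E-OEX epithelia, 1 to 4 for E-OEX in LE, 1 to 9 for E-OEX in GE, 17 to 22 for U-OEx against WT, 1 to 13 for U-OEx against E-OEX and 2 to 5 in the interaction. Members called higher in GE within E-OEX fell from 24 to 16 under quantile normalization. The share of all genes passing is not given for the alternative fits, so these counts do not set the members apart from other genes. The core motif TGGGAA was in 20.7% of members with a promoter, against 3.45% for GTGGGAA. The settings differed in genes, libraries, scaling or method, and the cause of the changed counts was not tested.

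Same-numbered libraries did not deviate together (correlations from -0.28 to 0.19, and from -0.12 to 0.14 within a genotype). Such correlations cannot decide whether GE and LE libraries of the same number share animals, and the main fits took all libraries as unpaired. With the replicate block the counts were 3 for E-OEX in LE, 5 for E-OEX in GE, 20 for U-OEx against WT, 9 for U-OEx against E-OEX and 4 in the interaction, and Ntn1 in E-OEX GE and Efna5 in U-OEx LE did not pass (adjusted p = 0.0902 and 0.0728), while Epha2 in U-OEx LE and the Robo4 interaction did (adjusted p = 0.0339 and 0.0445). Members with a few reads per library, such as Dcc, Epha3, Robo3 and Epha6, are limited by depth.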
